A study of Mus musculus with 36 samples.

Results

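Mouse lymphoma cells that carried the p53 mutant V170M were compared with cells that carried no mutant p53, both after nutlin-3a. The comparison takes the 3 V170M libraries and the 3 control libraries made from nutlin-treated cultures of the cell lines AH47A, 287 and 621, that is 6 of the 36 RNA-seq libraries in the series, paired by line. All lines have the Em-myc background, in which a Myc transgene driven by an immunoglobulin heavy chain enhancer gives rise to B-lineage lymphomas. The series' design text describes the introduced p53 proteins as human mutants and states that the lines keep wild-type p53, so both groups hold the mouse protein and the V170M group holds the mutant as well. The control carried a negative control construct named pMIG, a retroviral vector. Treated cultures received nutlin-3a at 5 µM for 12 hours together with QVD-OPH at 25 µM, a broad-spectrum caspase inhibitor. The labels do not say whether the untreated cultures received QVD-OPH. Each group has 1 library per line, and nothing in the labels says whether a line was transduced more than once, so the 3 libraries of a group are 3 different cell lines and not repeats of one. The other 30 libraries are used as background only, namely the untreated V170M and control cultures of the same lines and the mutants G280, I192S, R246Q and R270H.

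The p53 protein is a transcription factor that is kept scarce because Mdm2, itself a p53 target, marks it for destruction. Nutlin-3a occupies the p53 pocket of Mdm2 and so lets wild-type p53 accumulate and switch on genes of cell cycle arrest, DNA repair, metabolism and apoptosis, among them the direct killers Puma (Bbc3) and Noxa (Pmaip1). Active p53 also lowers many genes of DNA replication and mitosis, largely through p21 (Cdkn1a), the Rb family and the E2F factors. Mutant p53 subunits can join wild-type subunits in one tetramer, which can lower its hold on DNA.

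Library totals ran from 5404113 to 10718302 counts over the 36 libraries and from 5404113 (control, line 621) to 9312256 over the 6 compared here. Of 27179 genes in the table, 12321 had enough counts to be tested. B-lineage genes marked all 6 libraries, with Pax5 at 84.3 to 121 CPM (counts scaled to a common library size) and Cd79a at 115 to 235 CPM, whereas Ms4a1 reached at most 0.773 CPM and Rag1 ran from 0.247 to 567 CPM depending on the line. Defining markers of other cells were at or near 0: over the 6 libraries Lyz2 reached at most 0.247 CPM and Csf1r 0.493 CPM, and Elane, S100a8, Adgre1, Cd3e, Cd3d, Cd4, Col1a1 and Dcn had no count. The 10 myeloid markers summed to 8.04 to 42.6 CPM in V170M libraries and 14.6 to 48.7 CPM in control libraries, lower with V170M in each line, and most of the sum was Itgam. The 6 fibroblast markers summed to 1.36 to 2.78 CPM and 0.823 to 1.72 CPM, higher with V170M in each line, and most of the sum was Tagln. T cell markers summed to 0.155 to 20.6 CPM and 0.185 to 21.2 CPM, nearly all from Zap70 and Lck. Plasma cell markers summed to 572 to 696 CPM and 567 to 669 CPM, mostly from Irf4 and Mzb1, while Prdm1 reached at most 1.66 CPM and Jchain 0.398 CPM. In bulk RNA, fewer cells of a type and less RNA per cell cannot be told apart.

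Under nutlin, V170M cells differed from control cells at 2168 genes, which is 17.6% of those tested, in edgeR's quasi-likelihood test at an adjusted p under 0.05 with cell line as a block within each treatment. Of these, 956 (7.76% of the tested genes) were higher and 1212 (9.84%) were lower in V170M cells. Most differences were small: the median size among called genes was 0.452 on the log2 scale, and 65 rises and 183 falls passed 2-fold. The direction was the same in all 3 lines for 907 of the 956 higher genes (94.9%) and for 1170 of the 1212 lower genes (96.5%). These shares were read from the same 6 libraries that made the calls, which favour such genes, so they are not separate support. The number of calls rests on modelling a separate line effect under each treatment, a model chosen with earlier results of these data known. With a single line term shared by both treatments the number of calls was 59, and with no line term it was 0. Under the single term 18 of the 189 named genes called here kept the call, among them Trp53, Fas, Ei24, Phlda3, Ak1, Cd80, Bcl2l11, Uhrf1, Pcna and E2f1. Genes that lost it kept similar sizes: Mdm2 stood at -1.07 (adjusted p = 0.0651), Mdm4 at -1.19 (0.0667), Cdkn1a at -1.28 (0.11), Ccng1 at -0.74 (0.104) and Bax at -0.52 (0.138). Lower calls under that term numbered 4 in the apoptosis list described below, 2 in the list of other p53 targets, 1 each in the repair, metabolic and BCL2 lists and 0 in the feedback, arrest, ATF4, interferon and NF-kB lists. Higher calls numbered 3 in the replication list and 0 in the sterol, glycolysis and mitosis lists. Without line 287 it was 792, without line 621 it was 1200, without the V170M library of line 287 it was 1096, and without the control library of line AH47A it was 1314.

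Trp53, the mouse gene for p53 (chromosome 11, 69580348 to 69591873, RefSeq on GRCm38.p6, as for all gene positions here), had 780.2, 2024 and 1278 CPM in V170M libraries of lines AH47A, 287 and 621, against 261, 445.9 and 299.6 CPM in control libraries. The groups did not overlap, and every V170M library was above its control. The means were 1360 ± 626 CPM and 335 ± 97.5 CPM (SD, n = 3 each), a rise of 1.99 ± 0.25 on the log2 scale (± SE; adjusted p = 2.06e-05, edgeR), or 3.99-fold. Untreated cultures showed the same order, with 945.6, 2587 and 1381 CPM in V170M cells against 217.3, 291.2 and 205.6 CPM in control cells. That untreated difference was 2.70 ± 0.25 (adjusted p = 6.39e-06, edgeR), and its adjusted p was 0.255 without line 287. The values count reads assigned to the mouse gene, and how many came from the introduced sequence was not tested. The design text calls that sequence human, while the label that gives the mutation is headed trp53, the spelling of the mouse gene. The libraries labelled V170M were thus above their controls before and after nutlin.

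Of 8 tested genes of the p53 feedback loop, 6 were lower in V170M cells. Mdm2, the ubiquitin ligase that degrades p53 (gene 17246, chromosome 10, 117688875 to 117710758), had 178.6, 707.2 and 197.8 CPM in V170M libraries, against 440.1, 1420 and 364.7 CPM in control libraries. The level of line 287 lay far above the other lines in both groups, so the groups overlapped, but each line was lower with V170M. The fall was 1.08 ± 0.13 on the log2 scale (adjusted p = 7.08e-06, edgeR), or 2.11-fold. Mdm4, the Mdm2 partner that inhibits p53 (gene 17248, chromosome 1, 132986105 to 133030587), had 204.5, 422.8 and 209.1 CPM against 478.5, 1062 and 405.4 CPM in control libraries, a log2 difference of -1.18 ± 0.14 (adjusted p = 6.67e-06). Ccng1, the p53 target cyclin G1 (gene 12450, chromosome 11, 40748552 to 40755309), had 314, 542 and 471.6 CPM against 631.2, 864.2 and 686 CPM, with no overlap and a log2 difference of -0.75 ± 0.10 (adjusted p = 1.65e-05). None of the 8 was called higher, and their median log2 difference was -0.655 beside 0.000 over all genes. Rchy1 at -0.80, Ppm1d at -0.56 and Trim24 at -0.40 completed the 6, while Cop1 at 0.22 (adjusted p = 0.27) and Pml at -0.04 (adjusted p = 0.89) did not pass.

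Promoter sequence is given for 4 targets that were lower with V170M, since p53 acts by binding such DNA. Each line holds 60 bases of a RefSeq promoter window (GRCm38.p6), 5′ to 3′ on the gene's strand. Capitals mark matches to the p53 core motif, a 10-base pattern that is its own reverse complement, so that 1 search covers both strands.
Cdkn1a, chr17:29090892-29090951 (+): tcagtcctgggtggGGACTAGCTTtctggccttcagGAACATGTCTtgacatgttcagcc
Mdm2, chr10:117710910-117710969 (-): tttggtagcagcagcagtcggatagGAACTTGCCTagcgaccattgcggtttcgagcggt
Ccng1, chr11:40755437-40755496 (-): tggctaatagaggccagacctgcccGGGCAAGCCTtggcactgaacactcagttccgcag
Bax, chr7:45467065-45467124 (-): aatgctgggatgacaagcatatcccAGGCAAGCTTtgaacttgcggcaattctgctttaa
The first matched base lies 73, 186, 185 and 201 bases before the transcript start from which the RefSeq promoter window of Cdkn1a, Mdm2, Ccng1 and Bax is measured. For Ccng1 and Bax that start lies within the gene's outer limits given above and below. At least one match lay in 8.37% of all 27025 promoter windows, each running from 250 bases before to 50 after the start. It lay in 6 of the 8 feedback genes, 3 of 14 arrest, 4 of 14 apoptosis, 1 of 8 repair, 0 of 18 metabolic and 3 of 27 other p53 targets with a window. The share was 6.82% among 953 genes called lower, 7.02% among 755 called higher and 6.72% among 9360 tested genes with a window. A match is a string of letters and is not by itself a bound site.

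Of 14 arrest genes tested, 6 were lower and 1 was higher in V170M cells, with a median log2 difference of -0.241. Cdkn1a, the cyclin-dependent kinase inhibitor p21 (gene 12575, chromosome 17, 29090979 to 29100722), had 136.7, 294.3 and 104.4 CPM in V170M libraries, against 398.4, 605.4 and 234.2 CPM in control libraries. Each line was lower with V170M, although the highest V170M library exceeded the lowest control. The fall was 1.27 ± 0.17 on the log2 scale (adjusted p = 2.4e-05, edgeR), or 2.4-fold. Untreated cells held very little of it, 0.757, 3.57 and 2.37 CPM with V170M and 1.15, 5.02 and 6.39 CPM in controls. The V170M cultures thus had a large response of their own to nutlin given with QVD-OPH. The lower ones also included Psrc1, a spindle protein, at 65.5, 161.3 and 94.7 CPM against 194.8, 354.6 and 215.1 CPM in controls, with no overlap (log2 difference -1.31 ± 0.25, adjusted p = 0.00107). Gtse1, a microtubule-associated protein that restrains p53, differed by -0.86 ± 0.12 (adjusted p = 3.88e-05). Plk2, a polo-like kinase, had 74.51, 186 and 0.619 CPM with V170M, against 153.9, 368 and 0.740 CPM in controls. Line 621 barely held Plk2 in either group, so its difference of -1.004 ± 0.17 (adjusted p = 0.000221) rests on AH47A and 287. E2f7, a repressor of E2F genes, went the other way, with a rise of 0.63 ± 0.13 (adjusted p = 0.00127). Btg2 had 103.8, 148.9 and 104.9 CPM with V170M and 129, 135.6 and 110.4 CPM in controls, which did not pass (log2 difference -0.09, adjusted p = 0.66), and Gadd45a stood at -0.77 with an adjusted p of 0.071.

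The apoptosis arm was lower with V170M in 12 of 17 tested members, and 1 was higher, with a median log2 difference of -0.711. Bax, the pore former of the mitochondrial outer membrane (gene 12028, chromosome 7, 45461695 to 45466903), had 142.9, 182.4 and 160.2 CPM in V170M libraries, against 203.1, 277.3 and 215.8 CPM in control libraries. The groups did not overlap, and the difference was -0.51 ± 0.09 on the log2 scale (adjusted p = 0.000193, edgeR). Fas, a death receptor (gene 14102, chromosome 19, 34290647 to 34327775), had 1.11, 4.65 and 2.48 CPM against 7.82, 27.5 and 9.25 CPM, again without overlap. Its fall was 5.66-fold (log2 difference -2.50 ± 0.37, adjusted p = 0.000151), and all 6 untreated libraries were at 0 counts. Eda2r, another death receptor, had 0.494, 9.43 and 0.928 CPM against 4.63, 34.9 and 2.77 CPM (log2 difference -2.26 ± 0.40, adjusted p = 0.000847). Ei24, an endoplasmic reticulum protein induced by p53, had 108.2, 154 and 118.5 CPM against 179.4, 278.1 and 171.6 CPM with no overlap, a small difference of -0.71 ± 0.08 that had one of the lowest adjusted p-values, 1.84e-06. Phlda3, an inhibitor of Akt signalling, differed by -1.56 ± 0.28 (adjusted p = 0.000499), Zmat3, an RNA-binding protein, by -0.91 ± 0.16 (0.000499), and Apaf1, the apoptosome scaffold, by -0.45 ± 0.08 (0.000473).

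The 2 BH3-only genes that p53 induces for killing passed the threshold by little. Bbc3, which encodes Puma (gene 170770, chromosome 7, 16308398 to 16318334), had 134.8, 451.7 and 93.57 CPM in V170M libraries, against 327.1, 685.4 and 150 CPM in control libraries, lower in each line but overlapping between groups. The log2 difference was -0.85 ± 0.25 (adjusted p = 0.0223, edgeR), and the call was lost in 6 of 9 fits that left out a line or a library, with an adjusted p of 0.236 without line AH47A. Pmaip1, which encodes Noxa (gene 58801, chromosome 18), had 189, 548.8 and 74.86 CPM against 279.8, 845.9 and 171.6 CPM, with a log2 difference of -0.75 ± 0.23 (adjusted p = 0.0254). Its call was lost in 7 of 9 such fits and held without the V170M library of AH47A or the control library of 287. Bcl2l11, which encodes the BH3-only protein Bim, had 136.7, 151.1 and 119.4 CPM with V170M, against 241.4, 291.2 and 220.5 CPM in controls. That pair of groups did not overlap, and the log2 difference was -0.88 ± 0.13 (adjusted p = 7.89e-05). The survival genes of the family did not pass: Mcl1 stood at 0.22 (adjusted p = 0.087), Bcl2 at 0.20 and Bcl2l1 at 0.33 on the log2 scale. Of 13 BCL2 family genes tested, 4 were lower and 0 higher although the median log2 difference was 0.221, and 2 were lower without line AH47A, without line 287, or without any of the V170M library of 287 and the control libraries of AH47A and 621. Of the 4, Bax, Bbc3 and Pmaip1 are also counted in the apoptosis list.

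**Figure D1:**
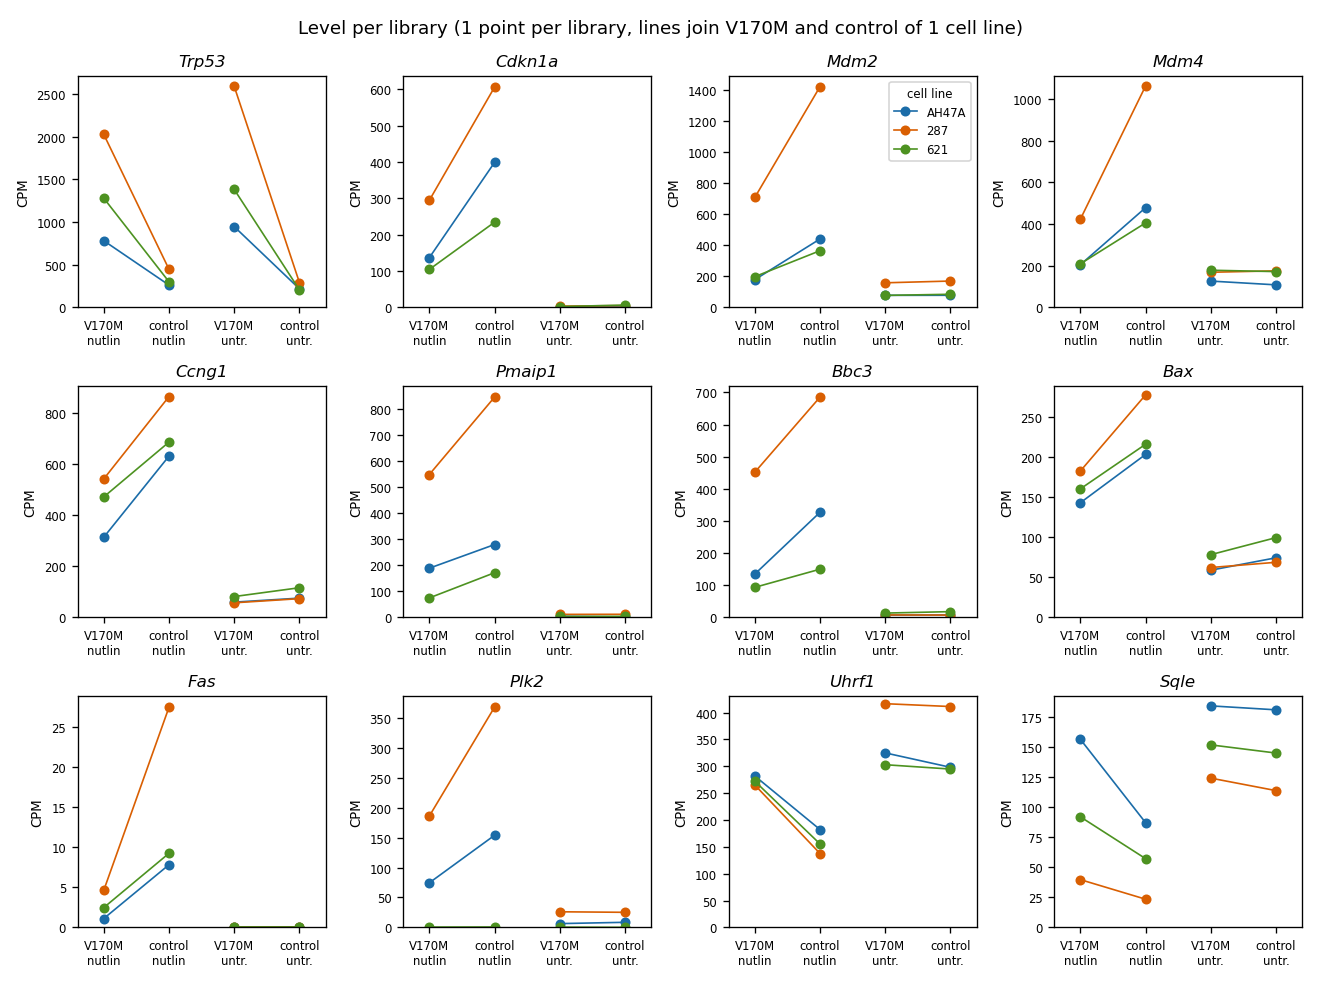
Levels in CPM (linear axis from 0) of 12 genes in the 12 V170M and control libraries, 1 point per library, coloured by cell line and joined to the other group of the same line and treatment. Under nutlin, Trp53 was higher with V170M in each line, while Cdkn1a and Mdm2 were lower in each line, at 136.7, 294.3 and 104.4 CPM for Cdkn1a with V170M against 398.4, 605.4 and 234.2 CPM in controls.

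Repair, metabolic and further targets of p53 divided by gene. Among 13 repair targets tested, 4 were lower and 2 were higher, with a median of -0.153, and 2 were lower without line AH47A, without line 621, or without the control library of AH47A. Ercc5, a nuclease of nucleotide excision repair, had 75, 162.5 and 62.8 CPM in V170M libraries, against 188.3, 352.7 and 135.8 CPM in control libraries (log2 difference -1.20 ± 0.17, adjusted p = 4.01e-05, edgeR). Polk, a translesion DNA polymerase, differed by -0.92 ± 0.15 (adjusted p = 0.000182). Ung, the uracil-DNA glycosylase that works beside replication forks, rose by 0.72 ± 0.12 (adjusted p = 0.000177). Mgmt was at 0 in all 3 V170M libraries and at 2.78, 0 and 0 CPM in controls, so its call rests on the AH47A control library. Among 19 metabolic targets, 7 were lower and 2 higher (median -0.048), and 4 were lower without line 287. Ak1, an adenylate kinase, had 6.05, 14.7 and 8.35 CPM with V170M, against 33.9, 73.9 and 26.3 CPM in controls, without overlap (log2 difference -2.21 ± 0.37, adjusted p = 0.000464). Sesn2, a stress-induced regulator of mTORC1, had 33.56, 79.25 and 38.97 CPM with V170M, against 83.45, 118.8 and 68.43 CPM in controls, a log2 difference of -0.93 ± 0.18 (adjusted p = 0.000798). Lpin1, a phosphatidate phosphatase, had 14.6, 23.8 and 21.8 CPM against 36.7, 115.1 and 62.1 CPM (-1.71 ± 0.31), with an adjusted p of 0.0668 without line 287. Gpx1 at 0.40 and Tigar at 0.32 were the 2 metabolic targets called higher, of which 0 were left without line 287, line 621 or the V170M library of 287 and 1 in the other leave-outs, except 2 without the V170M library of AH47A.

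The list of other p53 targets, which gathers genes of varied function, held 25 tested members. Like the other lists, it was chosen with earlier results of these data known. Of the 25, 19 were lower and 1 higher, with a median log2 difference of -1.029. Without line 287 the number of lower calls was 10. Cd80, a costimulatory ligand for T cells, had 2.71, 34.3 and 6.65 CPM in V170M libraries, against 15.5, 119.5 and 17.9 CPM in control libraries (log2 difference -1.95 ± 0.31, adjusted p = 0.000155, edgeR). Exoc4, an exocyst subunit, differed by -1.03 ± 0.13 (adjusted p = 1.65e-05), and Arap2, a GTPase-activating protein, by -1.42 ± 0.21 (adjusted p = 8.33e-05). Pvt1, a long noncoding RNA beside Myc, differed by -1.03 ± 0.19, whereas Myc itself had 3273, 3090 and 5510 CPM with V170M and 3995, 3432 and 5617 CPM in controls and did not pass (log2 difference -0.15, adjusted p = 0.30). Tnfaip8 was the member called higher, at 0.55. Within lines, the medians of this list were -1.122 in AH47A, -0.807 in 287 and -0.890 in 621, and those of the feedback list -0.862, -0.583 and -0.439.

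Sets of genes that nutlin moved were taken from the 4 other mutants, nutlin-treated against untreated, which share no library with the V170M and control groups. Treated cultures also received QVD-OPH, and for untreated ones this is not stated. Effects of nutlin and of QVD-OPH therefore cannot be told apart in these sets. Nutlin raised 586 genes over 2-fold there, and of these 211 (36%) were lower and 1 was higher with V170M than in controls, with a median log2 difference of -0.718. The difference was below 0 for 88.2% of them. Line medians were -0.827 in AH47A, -0.512 in 287 and -0.737 in 621. Among the 198 genes raised over 8-fold the median was -1.005, with 80 lower calls and 1 higher. The 123 genes that nutlin lowered over 2-fold had a median of 0.305 with V170M. Of these, 13 (10.6%) were higher and 0 lower, beside 7.76% higher and 9.84% lower over all tested genes. The share called higher was thus little above that over all tested genes. Read from the other side, 792 of the 1212 genes lower with V170M (65.3%) were nutlin-raised genes, which made up 19.1% of all tested genes. Of the 956 higher genes, 534 (55.9%) were nutlin-lowered genes, which made up 19.7%. The sets and the V170M comparison were read from the same lines, and no test was made of these shares. The number of genes called for the response itself was 1393 in V170M cells and 4488 in control cells. No alternative fit was run for these counts. The direct test of the difference between responses, given below, called 448 genes, but 2 without line 287 and 0 with a single line term.

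**Figure D2:**
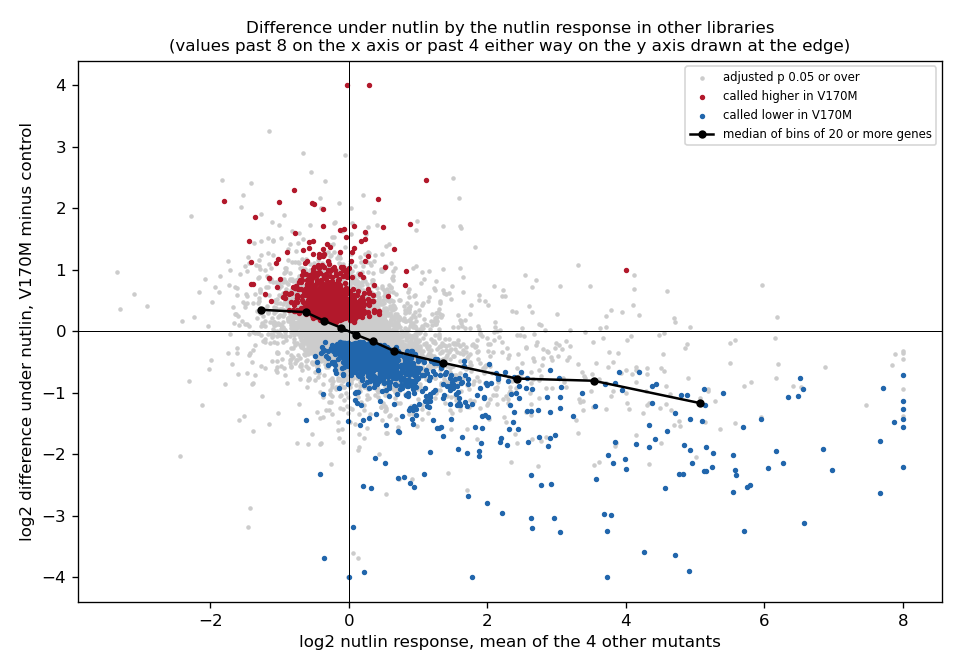
Log2 difference of V170M against control under nutlin (y axis) for each tested gene, against its log2 response to nutlin in the 4 other mutants (x axis), with the median of each bin of 20 or more genes as a black line and called genes in red (higher) or blue (lower). Genes raised over 2-fold had a median difference of -0.718 and genes lowered over 2-fold one of 0.305.

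Of 44 replication genes tested, a group that active p53 lowers, 22 were higher in V170M cells than in control cells and 0 lower, with a median log2 difference of 0.266. Without line 287, line 621 or the V170M library of line 621, 11, 13 and 14 were higher. Uhrf1, which guides maintenance DNA methylation to new strands (gene 18140, chromosome 17, 56303337 to 56323486), had 281.9, 265.1 and 272.2 CPM in V170M libraries, against 182.2, 137.6 and 155.4 CPM in control libraries. The groups were clearly apart, and the rise of 0.79 ± 0.08 on the log2 scale had an adjusted p of 8.09e-07 (edgeR). In untreated cells the values were close, 324.9, 416.5 and 302.9 CPM with V170M and 298.1, 411.2 and 294.8 CPM in controls. Pcna, the sliding clamp of DNA polymerase, had 163.5, 179.7 and 218.7 CPM against 123.1, 123.2 and 126.5 CPM in controls, with no overlap (0.58 ± 0.08, adjusted p = 1.65e-05). E2f1, a driver of replication genes, differed by 0.54 ± 0.09 (adjusted p = 9.66e-05) and E2f2, its relative, by 0.79 ± 0.11 (adjusted p = 2.04e-05). Rrm2, a subunit of ribonucleotide reductase, differed by 0.52 ± 0.10 (adjusted p = 0.000724). Line medians of the list were 0.181 in AH47A, 0.294 in 287 and 0.299 in 621.

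The window of Orc1, a subunit of the origin recognition complex, and that of Cdk1, the mitotic kinase, hold an E2F motif. They are given because both genes were called higher, and capitals mark TTTCGCGC or its reverse complement.
Orc1, chr4:108579394-108579453 (+): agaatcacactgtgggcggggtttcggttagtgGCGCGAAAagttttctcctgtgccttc
Cdk1, chr10:69353010-69353069 (-): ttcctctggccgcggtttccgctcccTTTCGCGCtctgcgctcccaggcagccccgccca
TTTCGCGC or TTTGGCGC, read on both strands, lay in 9 of 35 replication genes with a window, in 1.77% of tested genes and in 0.833% of all windows. Of 31 mitosis genes with a window, Cdk1's list, 1 held it. Among genes called higher the share was 3.05%, and among genes called lower 1.47%. Orc1 had 28.9, 17.8 and 39.1 CPM in V170M libraries, against 17.5, 13.2 and 28.3 CPM in control libraries (log2 difference 0.55 ± 0.11, adjusted p = 0.00134, edgeR), and its adjusted p was 0.054 without line AH47A. Cdk1 had 167.4, 82.7 and 125 CPM against 125.1, 55.1 and 90.6 CPM, higher in each line though the groups overlapped (0.49 ± 0.07, adjusted p = 7.36e-05). Of 37 mitosis genes tested, 6 were higher and 1 lower, with a median of 0.078, and 1 was higher without line 287.

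Sterol synthesis genes, which SREBP factors drive, were higher with V170M in 15 of 24 tested members and lower in 0, with a median log2 difference of 0.579. Without the control library of AH47A the count was 9. Sqle, squalene epoxidase, had 156.8, 39.8 and 92.2 CPM in V170M libraries, against 87.4, 23.5 and 57.3 CPM in control libraries. Each line was higher with V170M, while line 287 was low in both groups, so the groups overlapped. The rise was 0.77 ± 0.10 on the log2 scale (adjusted p = 1.25e-05, edgeR). Idi1, an isoprenoid isomerase, differed by 0.68 ± 0.11 (adjusted p = 0.00014). Line medians were 0.494 in AH47A, 0.455 in 287 and 0.530 in 621. Elovl6, a fatty acid elongase outside the list and named for its low p-value after the values were seen, rose by 1.12 ± 0.11 (adjusted p = 8.09e-07).

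Amino acid stress genes under the factor ATF4 were lower with V170M in 14 of 22 tested members and higher in 0, with a median log2 difference of -0.499 and line medians of -0.536, -0.502 and -0.489. Without line 287 there were 9. The 14 include Sesn2, which is also counted among the metabolic targets. Asns, asparagine synthetase, had 180.1, 346.3 and 281.5 CPM in V170M libraries, against 259.9, 549.2 and 456.1 CPM in control libraries (log2 difference -0.63 ± 0.09, adjusted p = 3.28e-05, edgeR). Cebpg, a partner of ATF4, differed by -0.75 ± 0.13 (adjusted p = 0.000313). Ddit3, which encodes Chop, had 20.4, 77.1 and 18.3 CPM against 47.8, 105.5 and 39.8 CPM (-0.92, adjusted p = 0.00639), and Trib3, a pseudokinase it induces, differed by -1.25 ± 0.30 (adjusted p = 0.00539). Without line AH47A the adjusted p was 0.0904 for Ddit3 and 0.126 for Trib3. Atf4 itself differed by -0.40 (adjusted p = 0.00238, and 0.0637 without line 287 and 0.0569 without its V170M library).

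Of 27 interferon response genes tested, 8 were lower and 0 higher, with a median log2 difference of -0.752, but 1 was lower without line AH47A, 2 without line 287, 2 without the V170M library of 621, 2 without the control library of AH47A, 4 without the V170M library of AH47A and 4 without the control library of 287. Mx1, an antiviral GTPase, had 1.73, 16.9 and 0 CPM in V170M libraries, against 5.56, 42.1 and 0.37 CPM in controls (log2 difference -1.46, adjusted p = 0.00964, edgeR), and lost its call in 4 of 9 fits that left out a line or library, with an adjusted p of 0.136 without line 287. Of 16 NF-kB targets, 4 were lower and 0 higher (median -0.298), and 0 were lower without line AH47A, without line 287, without the V170M library of 287 or without the control library of AH47A. Relb, a subunit of NF-kB, differed by -0.76 (adjusted p = 0.0294), lost in 5 of 9.

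In the hypoxia and glycolysis list, 7 of 20 tested members were higher and 1 lower, with a median of 0.364, and 4 were higher without line 287 or without line 621. In untreated cells the median of this list was 0.174. The lower call was lost in all 9 leave-outs. Tpi1, triose phosphate isomerase, had 382.6, 148 and 492.8 CPM in V170M libraries, against 233.7, 89.7 and 298.3 CPM in control libraries (log2 difference 0.72 ± 0.14, adjusted p = 0.000757, edgeR). Ldha, lactate dehydrogenase A, had 1759, 517.7 and 1780 CPM against 1078, 322.9 and 1095 CPM (0.70 ± 0.14, adjusted p = 0.0016). Line 287 was low in both groups, and each line was higher with V170M. Both genes have processed pseudogenes of near-identical sequence in mouse, and how the counting placed shared reads is not stated in the labels. Of 32 MYC and ribosome biogenesis genes, 3 were higher and 2 lower (median 0.043), with 1 higher without line AH47A, the V170M library of 621 or the control library of AH47A, and 1 lower without line 287 or 621, their V170M libraries, or the control library of AH47A or 287. Rrn3, the polymerase I initiation factor, had 235.1, 359.3 and 286.4 CPM with V170M, against 404.1, 628.2 and 409.9 CPM in controls, with no overlap (-0.70 ± 0.07, adjusted p = 8.09e-07). Proteasome genes gave 2 higher and 3 lower of 33 (median 0.092) and chaperones 2 higher and 0 lower of 18 (median 0.062). Over all tested genes, 7.76% were higher and 9.84% lower. The MYC and proteasome counts lie near these shares, as do the higher calls among chaperones and the B cell identity genes below. Higher calls among the metabolic targets above and the early B lineage genes below also lie near them. The higher proteasome calls were 0 without line AH47A, 287 or 621 or the control library of AH47A or 621 and 1 without the V170M library of 287, and the lower ones 0 without line 287. The higher chaperone calls were 0 without line 287, 4 without the control library of 287, and 1 without the V170M library of AH47A or 287 or the control library of AH47A or 621. B cell identity genes gave 2 higher, Syk at 0.44 and Cd79b at 0.41, and 0 lower of 17 (median -0.051), and both calls were lost without line 287 and 1 without line AH47A or 621. Of 12 early B lineage genes 1 was higher, Sox4 at 0.59 (adjusted p = 0.0485), with line medians of -0.415 in AH47A, 1.017 in 287 and 0.459 in 621, and 6 were called higher without AH47A. Without line 287 or 621, the V170M library of either, or the control library of AH47A or 287, 0 were higher, and without line 287 1 was lower. Of 3 tested myeloid markers 1 was lower, Itgam (-0.87, adjusted p = 0.0418), with an adjusted p of 0.252 without line AH47A.

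**Figure D3:**
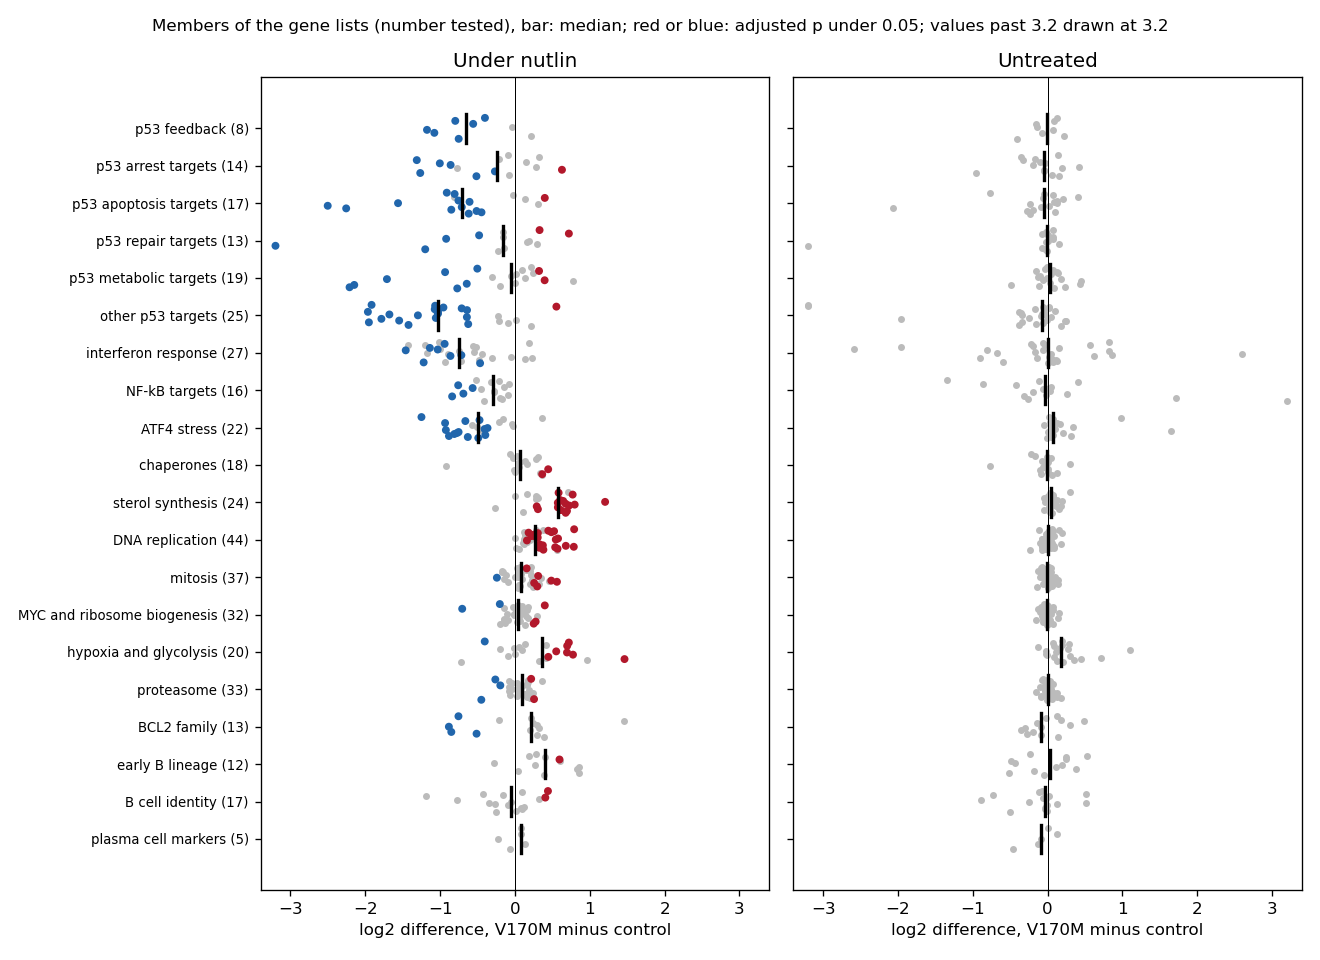
Log2 difference of V170M against control for the tested members of the gene lists, under nutlin on the left and untreated on the right (1 point per gene, red or blue where called, grey otherwise, with the list median as a bar). Lists with under 5 tested members are not drawn. Under nutlin the medians run from -1.029 for the other p53 targets to 0.579 for the sterol genes, with 0.000 over all genes.

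**Figure D4:**
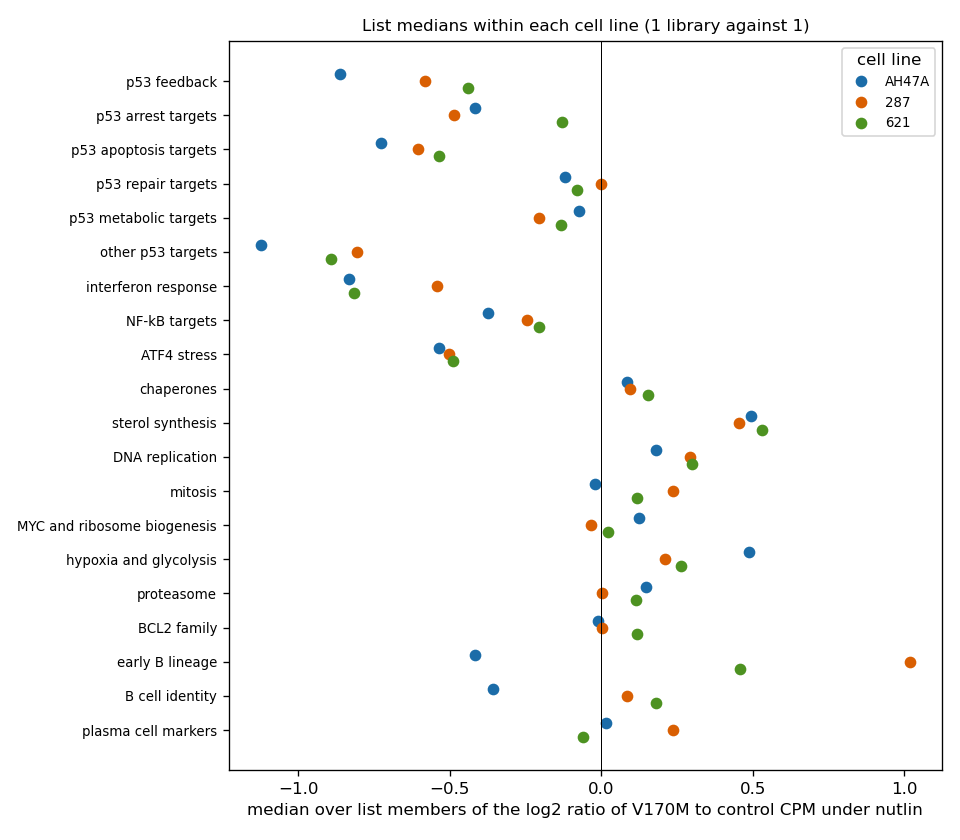
Median log2 ratio of V170M over control under nutlin for each gene list within the lines AH47A, 287 and 621 (1 point per line). The p53 feedback, other p53 target, sterol, replication and ATF4 lists have medians of 1 sign in all 3 lines, whereas the early B lineage list has -0.415 in AH47A and 1.017 in 287.

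The largest falls and rises lay among weakly expressed genes. The 15 largest falls with the same direction in 3 lines ran from -4.44 to -2.97 on the log2 scale at a median level of 1.45 CPM, and 10 of them were nutlin-raised over 2-fold in the 4 other mutants. Afap1l2, an adaptor protein, had 0.37, 1.2 and 0.155 CPM in V170M libraries, against 3.29, 8.62 and 2.03 CPM in control libraries (log2 difference -3.11 ± 0.59, adjusted p = 0.00119, edgeR). Grb10, an adaptor of the insulin receptor, differed by -2.97 ± 0.55 (adjusted p = 0.000938). Beside Trp53, the 14 largest rises ran from 1.47 to 2.46 at a median level of 0.98 CPM. Naaa, a lysosomal amidase, had 18.6, 11.3 and 28.6 CPM with V170M, against 9.16, 3.08 and 7.77 CPM in controls, without overlap (1.53 ± 0.18, adjusted p = 2.55e-06).

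Before nutlin few differences passed the threshold. Trp53 was the 1 gene called between untreated V170M and control cells, 0.00812% of those tested, with 264 genes under an unadjusted p of 0.05 in edgeR. No member of any gene list was called there. The fit shares its estimate of the spread between nutlin and untreated libraries. Genes under an unadjusted p of 0.05 numbered 530 with only the 18 untreated libraries and 605 with only the 6 compared. Under nutlin, such fits gave 1062 and 1159 calls in place of 2168. The numbers of calls before and after nutlin thus depend on which libraries the fit holds. A missed threshold does not show that the untreated groups were alike. A test of the difference between responses, nutlin against untreated with V170M minus the same in controls, called 448 genes (3.64%), of which 223 (1.81%) were higher and 225 (1.83%) lower. Of the 448, 441 were also called under nutlin, which is 98.4% of them and 20.3% of the nutlin calls, and the 2 comparisons share the 6 nutlin libraries. The number was 2 without line 287, 72 without line 621 and 0 with a single line term for both treatments. Leaving out 1 library moved it too. Among nutlin libraries it was 689, 93 and 235 without the V170M library of AH47A, 287 and 621, and 263 without the control library of 621. Among untreated libraries it was 249, 195 and 228 without the V170M library of AH47A, 287 and 621, and 162, 193 and 265 without the control library of these lines. Mdm2 had 77.6, 158 and 77.4 CPM in untreated V170M cells and 78, 170 and 84.6 CPM in untreated controls, and its responses differed by -0.996 ± 0.18 on the log2 scale (adjusted p = 0.00577). For Mdm4 that value was -1.24 ± 0.19 (adjusted p = 0.00194) and for Uhrf1 0.73 (0.0012). Of the ATF4 list 9 members were called lower for the response, of the replication list 7 higher, of the sterol list 4 higher and of the feedback list 3 lower. The apoptosis list had 2 lower, the arrest list 1 lower and 1 higher, and the other p53 targets 5 lower and 1 higher. The interferon, NF-kB and glycolysis lists had 0 in either direction. Trp53 did not pass for the response (-0.70, adjusted p = 0.278).

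V170M was set beside the other mutants to see where it stood apart. Against the mean of G280, I192S, R246Q and R270H under nutlin, 1 gene was called, 0.00812% of those tested, with 1681 under an unadjusted p of 0.05 in edgeR and 65 called by DESeq2. That gene was Babam2, a component of a deubiquitinase complex of DNA repair, with 30.5, 66.6 and 49 CPM in V170M libraries. It was lower than in the other mutants by 0.38 on the log2 scale (adjusted p = 0.043), a call lost in 13 of 18 fits that left out a line or library. Leaving out the G280 library of 621 gave 232 calls, the I192S library of AH47A 200, line AH47A 12 and the R270H library of AH47A 3, and the remaining leave-outs gave 0 to 2. A p that misses the threshold does not show that the mutants act alike. Genes raised over 2-fold by nutlin had a median difference of -0.317 between V170M and the mean of these mutants, whose libraries also chose the set.

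Each mutant was also compared with the same 3 control libraries, which the comparisons therefore share. The number of genes called was 2168 for V170M, 1293 for G280, 328 for I192S, 747 for R246Q and 448 for R270H. Trp53 differed from control by 1.99 with V170M, 1.52 with G280, 1.37 with I192S, 1.26 with R246Q and 1.04 with R270H on the log2 scale. V170M was not separated from the other 4 in Trp53 by edgeR (0.70, adjusted p = 0.188), while without line AH47A the difference was 1.01 (adjusted p = 0.0161). Cdkn1a differed from control by -1.27 with V170M, -0.90 with G280, -0.72 with I192S, -0.89 with R246Q and -0.56 with R270H. Mdm2 differed by -1.08 with V170M, -0.73 with G280, -0.72 with I192S, -0.66 with R246Q and -0.51 with R270H. For Bax the values were -0.51 with V170M, -0.41 with G280, -0.37 with I192S, -0.45 with R246Q and -0.38 with R270H. V170M thus had the lowest value of the 5 mutants in these 3 target genes, but for Mdm2 its distance from the mean of the other 4, -0.42, had an adjusted p of 0.15. For Bax the value of -0.51 lay close to the -0.45 of R246Q. No member of any gene list was called between V170M and the mean of the other 4.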

How the data were processed

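The authors deposited whole-number read counts per mouse gene for 36 libraries, in 1 table of the series and in per-sample files with identical values. The submitters' processing notes name featureCounts, bcl2fastq 1.8.4 and the build mm10 (GRCm38). The sources used here name no aligner, annotation or strand setting, so reads of overlapping or near-identical genes cannot be assigned further.

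From these counts, genes were filtered with filterByExpr (minimum count 10), scaled by TMM and tested with edgeR 4.0.16 (R 4.3.3, limma 3.58.1) by its quasi-likelihood test with robust dispersion. The fit held all 36 libraries in 12 groups of construct and treatment, plus cell line within each treatment, with 20 residual degrees of freedom. A call is a Benjamini-Hochberg adjusted p under 0.05 over 12321 genes, and ± beside a log2 difference is its SE. The tested genes held 99.94% of the counts. CPM are TMM-scaled, and per-line log2 ratios use a prior count of 2. Intervals and p-values measure the spread between these libraries, 1 per line and group, which may be partly technical.

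Same-numbered libraries come from the same cell line by the labels, which pairs them. Deviations from the group means correlated within lines at 0.859 to 0.882 under nutlin and 0.868 to 0.922 untreated.

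The members and gene lists were chosen with earlier results of these data known. So was the main model, with line within each treatment in place of the single additive line term of earlier work on this series. Genes named are Trp53, the 15 largest rises and falls called and of 1 direction in 3 lines, called list members, 10 p53 targets and Myc whatever their call, and up to 5 rises and 5 falls of the other comparisons. Elovl6 was named after its values were seen, as were the list members given as not called. Alternatives were RLE scaling, no filter, DESeq2 1.42.0, line as 1 additive term, no line term, fewer libraries in the fit, and leaving out each line or library. Some genes are not reported here. Positions and promoter windows come from RefSeq (GRCm38.p6), matched by gene ID or symbol.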

Additional observations from a re-analysis of the deposited data

Results flagged for a closer look

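For 10 genes the responses to nutlin of V170M and control cells differed in the test of the difference itself, with the largest differences of 1 direction in all 3 lines. The values are log2 response differences, V170M minus control, with adjusted p-values from edgeR. Lower responses with V170M were found for Lrp1, a lipoprotein receptor (-3.37, adjusted p = 0.0297), Adam8, a metalloprotease (-3.2, adjusted p = 0.042), 2610037D02Rik (-2.14, adjusted p = 0.0312), Chac1, a glutathione-degrading enzyme (-2.08, adjusted p = 0.0142) and Crip2, a LIM protein (-1.79, adjusted p = 0.0478). Higher responses were found for the microRNA gene Mir142 (2.02, adjusted p = 0.0465), Dnajb13, a chaperone cofactor (1.69, adjusted p = 0.00429), Naaa (1.53, adjusted p = 0.0012), Ttyh2, a membrane protein (1.47, adjusted p = 0.0394) and Gm10521 (1.39, adjusted p = 0.0485). Of 15 fits that left out a line or library, the call was lost in 14 for Ttyh2, 12 each for Gm10521, Mir142, Crip2 and 2610037D02Rik, 9 for Lrp1, 6 for Chac1, 2 for Dnajb13 and 1 for Naaa, and in 11 of 14 for Adam8.

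Chac1 had 7.16, 12.9 and 10.5 CPM in V170M nutlin libraries of AH47A, 287 and 621, against 11.2, 14.3 and 14.6 CPM in control nutlin libraries, which did not pass (adjusted p = 0.236). Its untreated values were 6.81, 2.01 and 1.04 CPM with V170M, against 1.79, 0.608 and 0.521 CPM in controls, so much of the response difference lies in the untreated libraries. Lrp1 had 0.987, 50.3 and 2.32 CPM in V170M nutlin libraries, against 10.3, 43.7 and 12 CPM in control nutlin libraries, and 42.9 CPM in the untreated V170M library of 287, against 8.36 CPM in its control. For Naaa, untreated values were 11.2, 20.8 and 28.8 CPM with V170M and 16.6, 16.1 and 27.1 CPM in controls, and its adjusted p was 0.125 without line 287.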

How the results depend on the processing

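Under nutlin the counts of calls stayed within 1.5 times of 2168 with RLE scaling (2202), no filter (1747) and DESeq2 (2188), which shared 2118, 1733 and 2005 genes with the calls reported. They were 59 (14 higher, 45 lower) with line as 1 additive term, 1062 (490 and 572) with only the 18 nutlin libraries in the fit and 1159 (467 and 692) with only the 6 compared. Without the replicate block they were 0 (433 genes under an unadjusted p of 0.05), with 0 higher and 0 lower. Leaving out a line or library gave 792 to 1975 calls, 337 to 910 higher and 455 to 1065 lower. For untreated cells no filter gave 2 calls with 1 lower, the 18 untreated libraries 4 (3 higher, 1 lower), the 6 compared 0, and leave-outs 0 to 5, with 0 to 4 higher and 0 to 1 lower. For the response difference DESeq2 gave 724 (340 higher, 384 lower), no filter 145 lower, the additive term 0 and no replicate block 0 in either direction, and leave-outs 2 to 689, with 2 to 373 higher and 0 to 316 lower. Against the 4 other mutants DESeq2 gave 65 (19 higher, 46 lower), no filter, the additive term, no replicate block and the 18 nutlin libraries 0, and leave-outs 0 to 232, with 0 to 106 higher and 0 to 149 lower. The additive fit assumes that lines respond alike to nutlin. Otherwise the cause was not tested. Of 189 named genes called, 66 passed in all 9 leave-outs, 18 with line as 1 additive term and 0 without the block. The log2 difference of Btg2, not called, ran from -0.205 to 0.0431 over the leave-outs, and lay above 0 without line AH47A and without its V170M library. That of Igkv4-60, a variable segment called at -3.19, ran from -3.38 to 0.214, with 0.214 without the control library of line 621.

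Depth was lowest in the control library of 621, and 3 lines per group limit the precision of low genes most.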

Other observations

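Other gene families were grouped by symbol after the values were seen. Over all tested genes, 7.76% were higher and 9.84% lower. The tRNA synthetases, which charge tRNAs and of which several are ATF4 targets, were taken by symbols such as Aars and Sars. Symbols that end in a number were not included. Of 17 tested, 11 were lower and 0 higher in V170M cells, with a median log2 difference of -0.326. The 82 subunits of the respiratory chain and ATP synthase had a median of 0.128, with 10 higher and 2 lower, and 69 lay above 0, while line medians were 0.221 in AH47A and -0.015 in 287. The 74 mitochondrial ribosomal proteins gave 12 higher and 3 lower (median 0.065) and the 79 cytosolic ones 0 higher and 3 lower (median -0.065). Of 13 snoRNA host genes, 4 were lower and 0 higher (median -0.142). Of 321 zinc finger genes 6 were higher and 29 lower (median -0.095), and the share called lower was near that over all tested genes. Of 43 immunoglobulin variable segments, which mark a B cell clone, 1 was higher and 1 lower.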
